A study of Mus musculus with 27 samples.

Results

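The Hedgehog genes described here were 9 genes taken by symbol from the 24065 genes of the RNA-Seq count table. They were the ligands Shh and Ihh, the receptors and surface proteins Ptch1, Hhip, Gas1 and Smo, and the transcription factors Gli1, Gli2 and Gli3. The choice was made by role in the pathway, without a threshold on any value. Expression was measured in whole E8.5 mouse embryos of strain C57BL/6J, with 3 WT embryos and 3 Dnmt3b-/- littermates, each made into its own library. The Dnmt3b-/- embryos were homozygous for an allele without catalytic activity, made by crossing Dnmt3b-2lox mice with an ACTB-Cre deleter line and then mating heterozygotes, so that every cell type of the embryo lacked the activity. The labels do not say which embryos shared a litter. The question was which Hedgehog genes differed between the genotypes, and by how much.

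Hedgehog proteins are secreted signals that pattern the neural tube, somites, gut and limbs. In their absence the receptor PTCH1 holds the transmembrane protein SMO inactive. Binding of the ligand releases SMO, which moves into the primary cilium and allows the GLI transcription factors to act as activators rather than repressors. GLI1 is an activator whose own gene is turned on by the signal, GLI2 is mainly an activator and GLI3 mainly a repressor. Ptch1 and Hhip are also turned on by the signal, and their products bind the ligand and dampen it. At this stage Shh is known from the notochord, floor plate and gut endoderm, and Ihh from the gut and the visceral endoderm of the yolk sac. DNMT3B is an enzyme that places new methyl groups on cytosines in CpG dinucleotides.

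Of the 9 genes, Shh and Smo rose in Dnmt3b-/- embryos and Gli1 fell, at an adjusted p below 0.05 in the edgeR quasi-likelihood test. Shh was 1.77-fold and Smo 1.32-fold the WT level, and Gli1 was 0.643-fold. The other 6 genes did not pass the test, and no gene passed the test with a change of more than 2-fold. Over all 15114 tested genes 35.7% passed the test, 17.6% higher and 18.1% lower in Dnmt3b-/- embryos, so 3 of 9 was close to the share among all genes. The share of all genes past the test with a fold above 2 was 5.9%, 2.12% higher and 3.78% lower. The median log2 fold change of the 9 genes was 0.20, beside -0.03 for all tested genes. All 9 genes passed the filter of a mean of at least 10 counts.

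**Figure D1:**
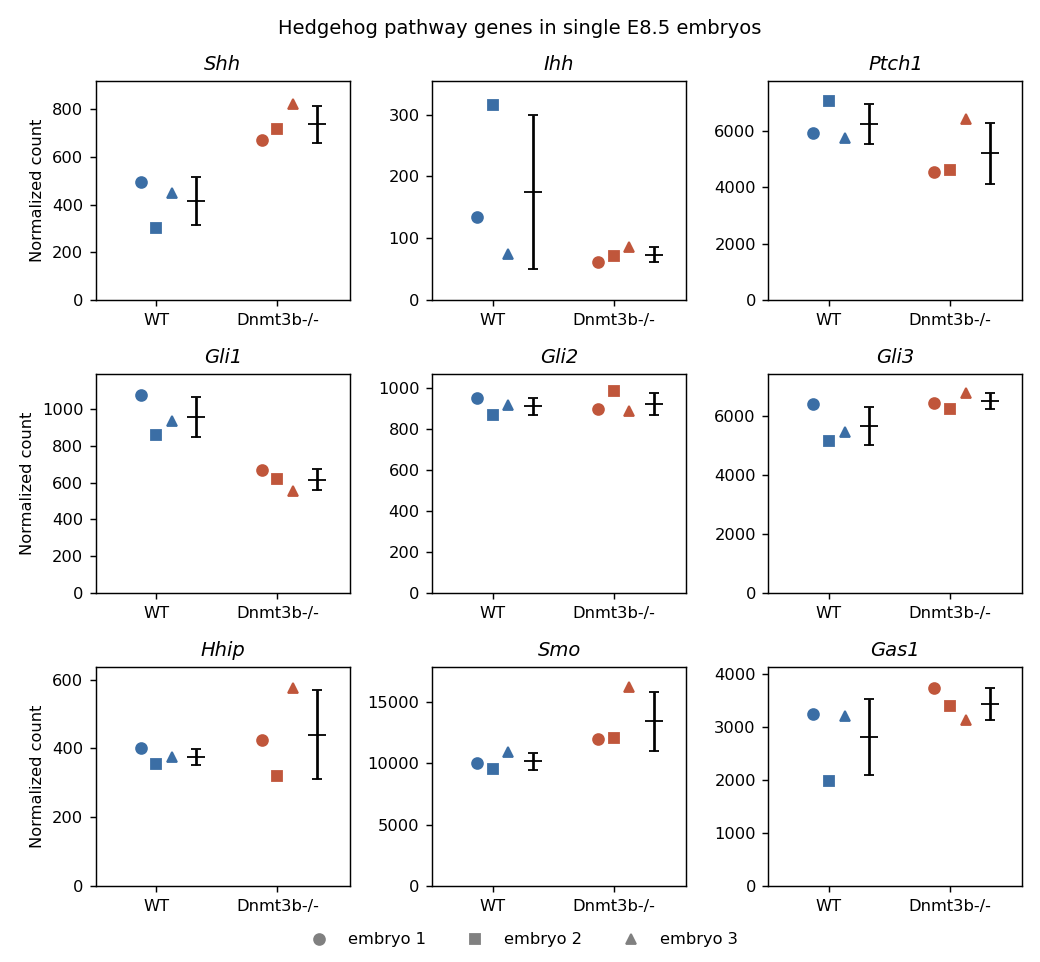
Normalized count (vertical axis, linear, from 0) of the 9 Hedgehog genes in single E8.5 embryos, 3 WT (blue) and 3 Dnmt3b-/- (red), with the mean and SD of each genotype in black. The Dnmt3b-/- embryos lie above all WT embryos for Shh and Smo and below them for Gli1, while Ihh is set apart by WT embryo 2 at 314.6 normalized counts.

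The promoters of Smo and Ihh are shown for their CpG, the dinucleotide that DNMT3B methylates. Smo rose and Ihh had the largest fitted fold change of the 9, and both had an entry in the RefSeq promoter table of GRCm38.p6. The table held 7 of the 9 genes, all but Shh and Gli1. The sequences below are the 250 bases before the start of each gene, 5′ to 3′ on the strand of the gene, with the CpG dinucleotides in capitals. The Smo window lies at chr6:29735247-29735496 (plus strand) and the Ihh window at chr1:74951673-74951922 (minus strand).
Smo: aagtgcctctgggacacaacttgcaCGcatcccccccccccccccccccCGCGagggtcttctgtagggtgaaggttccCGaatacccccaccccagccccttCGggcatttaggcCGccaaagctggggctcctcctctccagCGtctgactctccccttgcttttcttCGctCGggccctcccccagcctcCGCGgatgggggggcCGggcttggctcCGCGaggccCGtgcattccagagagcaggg
Ihh: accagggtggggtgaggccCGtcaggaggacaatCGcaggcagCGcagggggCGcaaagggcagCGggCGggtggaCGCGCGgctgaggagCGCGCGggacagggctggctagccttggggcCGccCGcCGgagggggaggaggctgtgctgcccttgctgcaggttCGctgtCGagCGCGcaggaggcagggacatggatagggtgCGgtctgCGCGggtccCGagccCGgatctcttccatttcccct
Over the table's whole window, from 250 bases before to 50 bases after the start it lists for a gene, Smo held 17 CpG and Ihh 30, beside a median of 7 over 32851 entries. In the same window Ptch1 held 47 CpG, Gli3 39, Hhip 30, Gli2 28 and Gas1 17, so all 7 lay above that median. For Ptch1, Gli2 and Hhip the listed start lies inside the span of the gene given below. The binding motif of the GLI factors, GACCACCCA, was searched on both strands and was found in none of the 7 windows and in 0.253% of all entries. Its inner core ACCACCC, which lies within that motif, was found in Gli2 alone of the 7, 205 bases before the start listed for it, on the opposite strand, and in 4.61% of all entries. A match is a description of the letters and not a site, and methylation of these windows was not analysed here.

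The libraries held between 41489332 and 58470286 counts on genes, and 3 counts equalled 2.377 to 3.501 normalized counts, where a normalized count is the raw count scaled to the mean library with TMM factors. WT embryo 2 stood apart from the other 5 embryos in markers of yolk sac visceral endoderm. Its summed FPKM (counts per exon length and library size) over 11 of these markers was 1287. The sum was 423 and 198 in the other WT embryos and 115 to 439 in Dnmt3b-/- embryos. Over 6 markers of primitive erythroid cells its sum was 397, the lowest of the 6 embryos, with Dnmt3b-/- embryo 3 next at 504. The other embryos had 1094 to 2248. None of these 6 erythroid markers passed the test between the genotypes, beside 35.7% of all tested genes. Of 5 markers of trophoblast and decidua, Tpbpa, Prl3d1, Prl2c2 and Prl8a2 had 0 counts in every embryo and Gcm1 had 0 to 17. The 8 markers of the E8.5 embryo proper, led by Myl7, Tnnt2 and Meox1, summed to 276 to 426 FPKM in WT and 271 to 378 in Dnmt3b-/- embryos. Of them 4, Tcf15, Tnnt2, Sox1 and Hoxb1, rose, beside 17.6% of all tested genes. Without each embryo in turn, Tcf15 passed the test in 6, Tnnt2 in 4, Sox1 in 3 and Hoxb1 in 2 of the 6 fits. Myl7 was lower (log2 fold change -0.72) and did not pass the test (adjusted p = 0.05005). Dnmt3b itself had 9197, 12195 and 7120 raw counts in WT embryos and 4068, 3904 and 4196 in Dnmt3b-/- embryos, counts that include exons outside the deletion. Genes lower in Dnmt3b-/- embryos had a median exonic GC content of 55.7%, those higher 45.0% and all tested genes 50.3%. The fold changes of the 9 genes are therefore followed by their values in a second fit, from which a smooth trend in the base composition (GC content) and length of the exons was taken out library by library, and in which 22.9% of all genes passed the test. In whole embryos, fewer cells of a type and less RNA per cell cannot be told apart.

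Shh, the ligand of the notochord and floor plate, lies on the minus strand at chr5:28456840-28467101. It had 492.0, 300.8 and 448.7 normalized counts in WT embryos 1, 2 and 3. The Dnmt3b-/- embryos had 670.4, 714.3 and 821.7, all above every WT embryo. Over all tested genes, 25.3% lay above WT without overlap in this way and 26.5% below. The mean of Shh rose from 413.9 ± 100.2 to 735.5 ± 77.9 (SD, n = 3), a log2 fold change of 0.83 ± 0.19 (SE; 95% interval 0.38 to 1.27; adjusted p = 0.0118). WT embryo 2 was the lowest of the 6, and without it the log2 fold change was 0.64 (adjusted p = 0.0106). The corrected value was 0.97 (adjusted p = 0.0133). Shh passed the test in all 15 alternative fits, with adjusted p between 0.000228 and 0.0416.

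The markers of the tissues that make Shh moved less clearly. The summed FPKM of 6 markers of notochord, node and floor plate, led by T, Foxa2 and Foxa1, was 36.4, 52.5 and 31.6 in WT embryos. In Dnmt3b-/- embryos the sum was 45.1, 47.8 and 66.9, so the genotypes overlapped. Of the 6 markers none rose and Chrd fell (log2 fold change -1.30, adjusted p = 0.0489), beside 17.6% of all tested genes that rose and 18.1% that fell. Corrected for GC content and length, Chrd lost its call (-0.71, adjusted p = 0.263) and Foxa1 rose (0.80, adjusted p = 0.0422), beside 12.4% of all tested genes that rose. Chrd passed the test in 2 of the 6 fits without an embryo. Foxj1, a gene of motile cilia in the node, was at 46, 3 and 0 raw counts in Dnmt3b-/- embryos and at 42 to 60 in WT embryos. Foxj1 did not pass the test (log2 fold change -1.41, adjusted p = 0.330). In the fits without an embryo its value was -4.60 to -0.83, and it passed the test in 1 of the 6 (adjusted p = 0.00790). WT embryo 2 had the lowest Shh level of the 6 embryos at a sum of 52.5. With it set aside, a choice made after the values were seen, the embryo with the higher sum had the higher Shh level. T made up most of this sum, at 28.1, 41.3 and 24.1 FPKM in WT embryos and 35.3, 40.2 and 54.4 in Dnmt3b-/- embryos. The order of the sums is therefore mainly that of 1 gene. The summed FPKM of 6 gut endoderm markers, led by Trh, Nepn and Cldn4, was 34.0 to 40.4 in WT and 33.5 to 34.8 in Dnmt3b-/- embryos. Of these markers 2, Pyy and Cldn4, fell, beside 18.1% of all tested genes. After correction neither passed the test, at -0.71 for Pyy (adjusted p = 0.178) and -0.09 for Cldn4 (adjusted p = 0.706). The part of these cell types in the result for Shh was not tested.

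Ihh, the ligand of the visceral endoderm and gut, lies on the minus strand at chr1:74945315-74951672. The 3 WT embryos had 134.7, 314.6 and 75.2 normalized counts. In Dnmt3b-/- embryos Ihh had 62.1, 72.4 and 86.1 normalized counts, so that WT embryo 3 lay inside the Dnmt3b-/- range. The means were 174.8 ± 124.6 in WT and 73.5 ± 12.05 in Dnmt3b-/- embryos (SD, n = 3). The log2 fold change was -1.24 ± 0.49 (SE; 95% interval -2.36 to -0.13), the largest of the 9 in size, and it did not pass the test (adjusted p = 0.0793). Without WT embryo 2 the value was -0.52 (adjusted p = 0.299), and without WT embryo 3 it was -1.61 and passed the test (adjusted p = 0.0212). Corrected for GC content and length, the value was -0.54 (adjusted p = 0.481), and in DESeq2 the gene passed the test (adjusted p = 0.0322).

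Ihh was highest in WT embryo 2, in which the markers of yolk sac visceral endoderm were also highest. That list was led by Apoa1, Ttr and Afp. Of its 11 genes 1, Amn, fell in Dnmt3b-/- embryos and none rose, beside 18.1% of all tested genes that fell and 17.6% that rose. Amn lost its call after correction (adjusted p = 0.115). The median log2 fold change of the list was -1.29, and all 11 values were negative. Within the WT embryos the order of the Ihh level was that of the marker sum. Ihh was at 0.917, 2.14 and 0.512 FPKM in WT embryos 1, 2 and 3, and the sum was 423, 1287 and 198. Across the 5 embryos other than WT embryo 2 the level of Ihh did not follow the marker sum. In Dnmt3b-/- embryos 1, 2 and 3 Ihh was at 0.423, 0.493 and 0.587 FPKM while the sum was 439, 260 and 115, so the embryo with the highest sum of these 5 had the lowest Ihh level. The part of visceral endoderm in the result for Ihh was not tested.

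**Figure D2:**
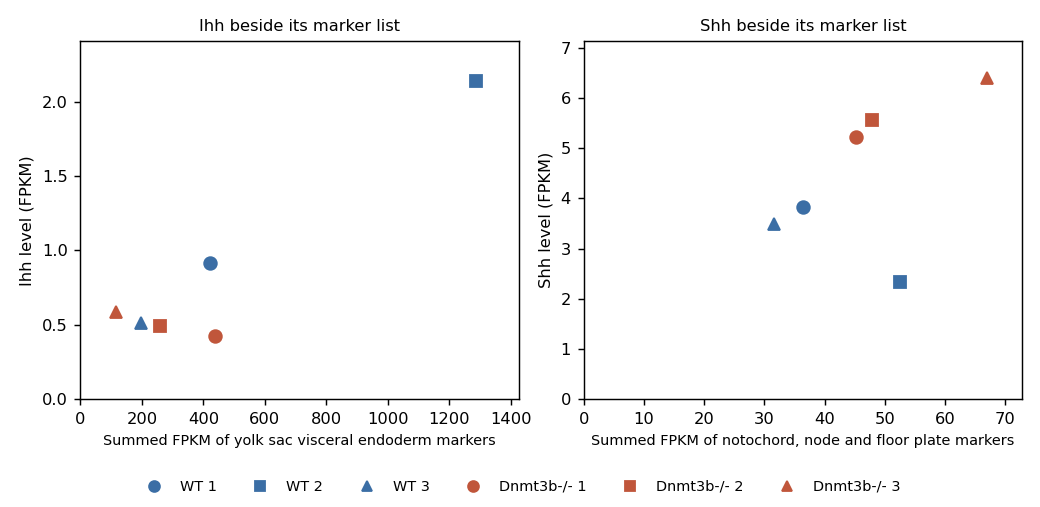
Level of Ihh (left) and Shh (right) in FPKM on the vertical axis against the summed FPKM of marker genes of yolk sac visceral endoderm or of notochord, node and floor plate on the horizontal axis, with 1 point for each of 6 embryos and linear axes from 0. WT embryo 2 (blue square) has both the highest Ihh level, 2.14 FPKM, and the highest endoderm sum, and in the right panel it has the lowest Shh level, 2.34 FPKM, at the second highest sum. The sum in the right panel is mostly T.

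Smo, the transmembrane protein that carries the signal into the cell, lies on the plus strand at chr6:29735497-29761366. It had 10011, 9559 and 10892 normalized counts in WT embryos and 11996, 12098 and 16210 in Dnmt3b-/- embryos. All 3 Dnmt3b-/- embryos were above every WT embryo, and Dnmt3b-/- embryo 3 was well above the other two. Smo rose by a log2 fold change of 0.40 ± 0.12 (SE; 95% interval 0.12 to 0.69; adjusted p = 0.0339). Smo lost its call without WT embryo 1 (adjusted p = 0.0940), without WT embryo 2 (adjusted p = 0.0714) and when only total counts were scaled (adjusted p = 0.0541). After the correction for GC content and length the value was larger (0.98, adjusted p = 0.00545).

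Ptch1, the receptor that holds SMO inactive and is itself induced by the signal, lies on the minus strand at chr13:63508328-63573460. WT embryos had 5909, 7031 and 5745 normalized counts, and Dnmt3b-/- embryos had 4524, 4621 and 6424. The first 2 Dnmt3b-/- embryos were below every WT embryo, and Dnmt3b-/- embryo 3 was inside the WT range. Ptch1 had a log2 fold change of -0.26 ± 0.14 (SE; 95% interval -0.59 to 0.07; adjusted p = 0.192). Without Dnmt3b-/- embryo 3 it was -0.43 and passed the test (adjusted p = 0.0246). After correction it was -0.13 (adjusted p = 0.606).

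Hhip, which codes for a membrane protein that binds and sequesters the ligand and is also induced by it, lies on the minus strand at chr8:79965850-80058060. It had 400.1, 353.7 and 375.2 normalized counts in WT embryos and 423.9, 319.8 and 576.9 in Dnmt3b-/- embryos. The lowest and the highest of the 6 embryos were both Dnmt3b-/-, with an SD of 129.3 against 23.3 in WT (n = 3). For Hhip the log2 fold change was 0.23 ± 0.22 (SE; 95% interval -0.27 to 0.72; adjusted p = 0.449), and it was -0.08 with the GC content and length correction.

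Gas1, a surface co-receptor that helps PTCH1 bind the ligand, lies on the minus strand at chr13:60174405-60177535. WT embryos had 3248, 1986 and 3216 normalized counts and Dnmt3b-/- embryos 3742, 3405 and 3138. WT embryo 2 was far below the other 5, which overlapped. For Gas1 the log2 fold change was 0.28 ± 0.18 (SE; 95% interval -0.12 to 0.69; adjusted p = 0.247), and without WT embryo 2 it was 0.08 (adjusted p = 0.520). In the corrected fit Gas1 passed the test at 0.83 (adjusted p = 0.00873).

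Gli1, the activator whose transcription follows the signal, lies on the minus strand at chr10:127329882-127341579. It had 1076, 858.9 and 935.4 normalized counts in WT embryos. All 3 Dnmt3b-/- embryos were lower, at 670.4, 619.8 and 556.5. The mean fell from 956.8 ± 110.1 to 615.5 ± 57.0 (SD, n = 3), a log2 fold change of -0.64 ± 0.13 (SE; 95% interval -0.94 to -0.34; adjusted p = 0.00678). Gli1 passed the test without each embryo in turn, with values between -0.71 and -0.54, and without WT embryo 2 it was -0.71 (adjusted p = 0.00509). In the fit corrected for GC content and length the call was lost, at -0.10 (95% interval -0.35 to 0.16; adjusted p = 0.570). The exonic GC content of Gli1 is 58.4%, above the median of the genes that fell.

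Exons of Arhgap9, on the opposite strand, overlap those of Gli1. Arhgap9 had 67, 59 and 45 raw counts in WT embryos and 31, 6 and 6 in Dnmt3b-/- embryos, beside 491 to 1358 raw counts of Gli1. Exons of 9530036O11Rik overlap those of Shh in the same manner, with 6 to 15 raw counts in the 6 embryos beside 262 to 725 of Shh. The strand setting of the counting is not given in the sources used here, so reads in the shared exons may belong to either gene.

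Gli2 and Gli3 did not pass the test. Gli2, on the minus strand at chr1:118834061-119054405, had 950.0, 866.9 and 915.1 normalized counts in WT embryos and 897.8, 982.7 and 886.3 in Dnmt3b-/- embryos. Its genotypes overlapped throughout, with a log2 fold change of 0.02 ± 0.10 (SE; 95% interval -0.22 to 0.25; adjusted p = 0.910). After correction Gli2 passed the test at 0.55 (adjusted p = 0.0120). Gli3, on the plus strand at chr13:15463723-15730026, had 6411, 5164 and 5464 normalized counts in WT embryos and 6462, 6269 and 6805 in Dnmt3b-/- embryos. WT embryo 1 lay between Dnmt3b-/- embryos 2 and 1. The log2 fold change of Gli3 was 0.20 ± 0.09 (SE; 95% interval -0.01 to 0.41; adjusted p = 0.128), and it was 0.25 with the GC content and length correction (adjusted p = 0.0618). Without WT embryo 1 the gene passed the test (adjusted p = 0.0435).

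**Figure D3:**
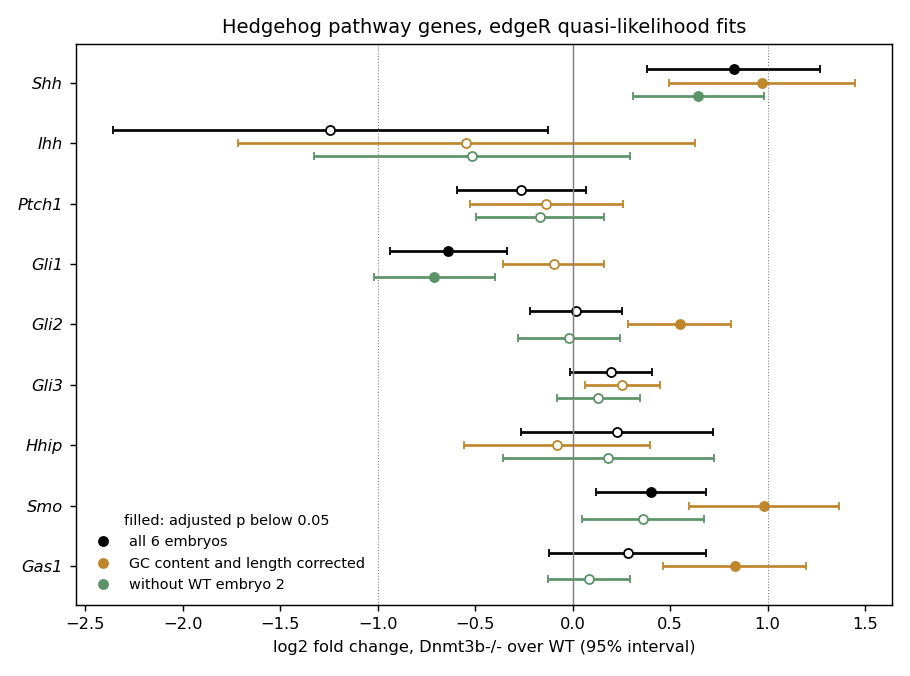
Log2 fold change between the genotypes (horizontal axis, positive where Dnmt3b-/- embryos are higher) for the 9 Hedgehog genes, with 95% intervals, in the fit of all 6 embryos (black), with the GC content and length correction (ochre) and without WT embryo 2 (green). Filled points passed the test at an adjusted p below 0.05, and dotted lines mark a 2-fold change. Gli1 is filled in black and green and open in ochre, while Gli2 and Gas1 are filled in ochre alone and Shh is filled in all 3 fits.

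In the fit corrected for GC content and length, Shh, Smo, Gli2 and Gas1 rose and none fell, beside 12.4% of all tested genes that rose and 10.6% that fell. The correction raised the median log2 fold change of the 9 genes to 0.25 and that of all tested genes to -0.0046. The genes that it moved most were those with the highest exonic GC content. Ihh has 62.3%, Smo and Gas1 58.6%, Gli1 58.4% and Gli2 57.3%, while Shh, Ptch1, Gli3 and Hhip have 41.2% to 52.5%.

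Levels can be compared between genes in FPKM, which was computed here from the counts. Smo was the highest of the 9 genes in both genotypes, at 53.0 ± 3.5 FPKM in WT and 70.1 ± 12.6 in Dnmt3b-/- embryos (SD, n = 3). In WT embryos it was followed by Gas1 (18.7 ± 4.8 FPKM), Ptch1 (16.8 ± 1.9 FPKM) and Gli3 (14.0 ± 1.6 FPKM). Gas1 and Ptch1 overlapped between embryos, as did Ptch1 and Gli3. The lower levels in WT embryos were 5.42 ± 0.62 FPKM for Gli1, 3.22 ± 0.78 for Shh, 2.82 ± 0.13 for Gli2, 1.19 ± 0.85 for Ihh and 0.861 ± 0.053 for Hhip. Shh overlapped Gli2, and Ihh overlapped Hhip. Ligands were therefore among the lower levels in whole embryos, and the receptors Smo, Gas1 and Ptch1 were the highest.

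The order changed at 3 places in Dnmt3b-/- embryos. Shh, at 5.73 ± 0.61 FPKM, was above Gli1, at 3.49 ± 0.32 FPKM (SD, n = 3), with no overlap. In WT embryos Gli1 had been above Shh with no overlap. FPKM is not corrected for GC content. In the fit corrected for GC content and length, the log2 fold change was -0.10 for Gli1 (adjusted p = 0.570) and 0.97 for Shh (adjusted p = 0.0133). Ihh, at 0.501 ± 0.082 FPKM, was below Hhip, at 1.01 ± 0.30 FPKM. Gli3 and Ptch1 exchanged places but overlapped in both genotypes.

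Ratios of counts within an embryo do not depend on the scaling between libraries. The ratio of Gli1 to Gli3 counts, the induced activator against the main repressor, was 0.168, 0.166 and 0.171 in WT embryos and 0.104, 0.0989 and 0.0818 in Dnmt3b-/- embryos. This was the tightest of the ratios in WT embryos, and all Dnmt3b-/- embryos were lower, by 0.84 on the log2 scale. The ratio of Ptch1 to Smo counts was 0.590, 0.735 and 0.527 in WT and 0.377, 0.382 and 0.396 in Dnmt3b-/- embryos. It was lower in all Dnmt3b-/- embryos too, with a mean log2 difference of -0.67. The ratio of Ihh to Shh counts was 0.274, 1.05 and 0.168 in WT and 0.0927, 0.101 and 0.105 in Dnmt3b-/- embryos. Its log2 difference was -1.87, and without WT embryo 2 it was -1.11.

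For each of the 3 ratios the two-sided exact permutation test over 3 against 3 embryos gave p = 0.1, the smallest that this design allows (adjusted p = 0.1). The design cannot pass 0.05. In each pair the first gene had a negative and the second a positive log2 fold change, so the lower ratios restate those values. In the fit corrected for GC content and length, the log2 fold change of the first gene less that of the second was also below 0. It was -1.52 for Ihh and Shh, -0.35 for Gli1 and Gli3 and -1.12 for Ptch1 and Smo. These are differences between fitted values, not ratios within an embryo, and they have no test. The ratio of Gli1 to Shh counts was chosen after its values were seen and has no test. It was 2.19, 2.85 and 2.08 in WT embryos and 1.00, 0.868 and 0.677 in Dnmt3b-/- embryos, as Shh was higher and Gli1 lower in every Dnmt3b-/- embryo than in any WT embryo.

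**Figure D4:**
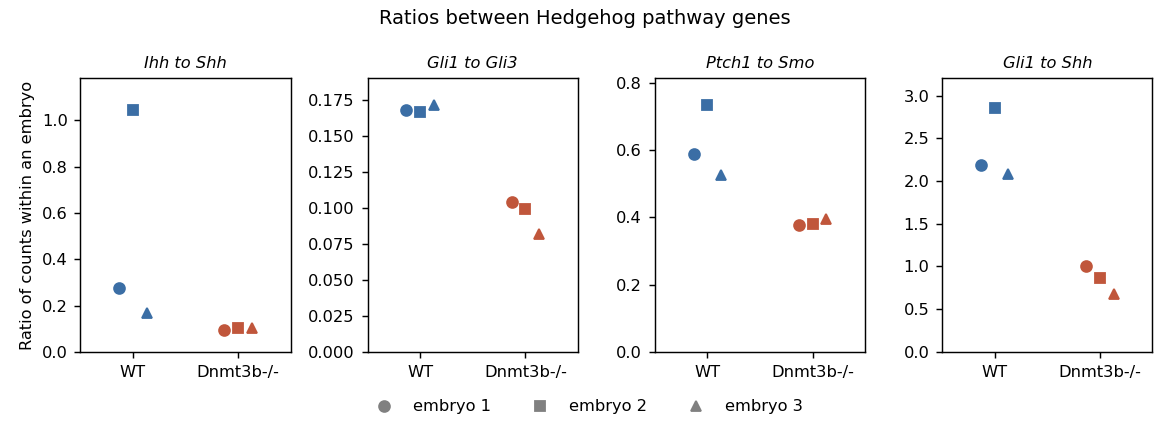
Ratio of the counts of 2 genes within an embryo (vertical axes, linear, from 0) for Ihh to Shh, Gli1 to Gli3, Ptch1 to Smo and Gli1 to Shh in 3 WT (blue) and 3 Dnmt3b-/- (red) embryos. Every Dnmt3b-/- embryo lies below every WT embryo in each of the panels, and the Gli1 to Gli3 ratio of the WT embryos lies between 0.166 and 0.171. In every panel the first gene had a negative and the second a positive log2 fold change.

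The rest of the pathway was described with 53 further genes, listed by role, of which 52 were tested. In Dnmt3b-/- embryos 9 rose, 11 fell and 32 did not pass the test, so 38.5% passed, beside 35.7% of all genes. The median log2 fold change was -0.17 and became 0.09 with the GC content and length correction, under which 9 rose and 2 fell. Under that correction 12.4% of all tested genes rose, 10.6% fell and 22.9% passed the test in either direction. Without WT embryo 2, 8 rose and 11 fell. The genes past 2-fold were Nkx2-1, which rose, and Lrp2 and Foxl1, which fell.

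By role, the values below are from the fit without correction unless said otherwise. Where 35.7% of all genes passed the test, none of the 7 genes of ligand maturation and release did. They code for the ligand DHH, for the enzyme that attaches palmitate to the ligand (Hhat) and for proteins that release the ligand from the producing cell. The 3 with the smallest adjusted p were Scube3 (log2 fold change -0.48, adjusted p = 0.122), Disp1 (0.27, adjusted p = 0.130) and Hhat (-0.31, adjusted p = 0.264). Corrected, Scube3 was -0.04 and Hhat -0.10. Disp1, the transporter that releases the lipid-bearing ligand, passed the test with the GC content and length correction at 0.67 (adjusted p = 0.00308).

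Among 5 other receptors and surface proteins, 3 fell and none rose, where 18.1% of all genes fell and 35.7% passed the test. Lrp2, an endocytic receptor of neural and endodermal epithelia, had 9846, 21006 and 6167 normalized counts in WT and 4491, 4378 and 3463 in Dnmt3b-/- embryos. The log2 fold change of Lrp2 was -1.59 ± 0.38 (SE; adjusted p = 0.0134). WT embryo 2 had the highest Lrp2 count, as it had the highest sum of visceral endoderm markers, and without it Lrp2 still fell, by 0.96 on the log2 scale (adjusted p = 0.00500). Its call was lost without Dnmt3b-/- embryo 2 or 3 and held after correction, at -1.40 (adjusted p = 0.0379). Boc, a co-receptor, had a log2 fold change of -0.35 (adjusted p = 0.0438), which turned to 0.05 with the GC content and length correction, and it passed the test in 1 of the 6 fits without an embryo. After correction 1 of the 5 genes fell and none rose, beside 10.6% of all tested genes that fell and 12.4% that rose.

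The 13 genes of the cytoplasmic relay, which link SMO to the GLI proteins, had 2 that rose and 2 that fell, beside 35.7% of all genes that passed. The kinases Gsk3b (log2 fold change 0.32, adjusted p = 0.0132) and Csnk1a1 (0.23, adjusted p = 0.0368), which phosphorylate GLI proteins among many substrates, rose. Iqce (-0.46, adjusted p = 0.0164), a ciliary partner of the EVC proteins, and Sufu (-0.30, adjusted p = 0.0302), which binds and restrains GLI proteins, fell. Sufu lost its call without each embryo in turn and turned to 0.09 with the GC content and length correction, where Iqce was -0.02 (adjusted p = 0.917). Csnk1a1 also lost its call and turned to -0.08 (adjusted p = 0.440), while Gsk3b held at 0.25 (adjusted p = 0.0379). Without an embryo in turn, Csnk1a1 passed the test in 2, Iqce in 3 and Gsk3b in 5 of the 6 fits, and Gsk3b lost its call without WT embryo 3.

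Cilium transport, which carries SMO and GLI proteins through the cilium, had 5 of 16 genes that rose and 5 that fell, where 35.7% of all genes passed the test. After correction 3 rose and 1 fell, where 22.9% of all genes passed. Ift52, a subunit of the transport trains, had 1565, 1827 and 1620 normalized counts in WT and 2522, 2675 and 3118 in Dnmt3b-/- embryos (log2 fold change 0.73, adjusted p = 0.00185). Kif3a, a motor that moves these trains outward, changed by 0.78 (adjusted p = 0.00254). Arl13b, a ciliary GTPase, changed by 0.66 (adjusted p = 0.00257). All 3 passed the test without each embryo in turn and with the GC content and length correction, at 0.70 for Ift52, 0.52 for Kif3a and 0.33 for Arl13b (adjusted p = 0.0435). With the replicate block and the correction together Arl13b lost its call (adjusted p = 0.0685). Rpgrip1l and Ift88 rose as well, and Mks1, Tulp3, Ift172, Dync2h1 and Ift122 fell, with log2 fold changes from -0.54 to -0.37. Of these 7, only Dync2h1 passed the test after correction, at -0.50 (adjusted p = 0.00559), and the others had corrected values between -0.28 and 0.20.

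Of 12 genes known to be induced by Hedgehog signals, 11 were tested, and 2 rose and 1 fell, beside 35.7% of all genes that passed. Nkx2-1, a transcription factor of the ventral forebrain, lung and thyroid, had 33.3, 21.8 and 34.5 normalized counts in WT and 66.1, 86.4 and 129.2 in Dnmt3b-/- embryos. The log2 fold change of Nkx2-1 was 1.64 ± 0.38 (SE; adjusted p = 0.0111), and it passed the test without each embryo in turn and, at 2.11, with the GC content and length correction (adjusted p = 0.00979). Ccnd1, a cyclin with many inputs, had a log2 fold change of 0.33 (adjusted p = 0.0433) and 0.41 after correction (adjusted p = 0.0463). It passed the test in 1 of the 6 fits without an embryo, the one without Dnmt3b-/- embryo 1, and lost its call with total counts as the scaling (adjusted p = 0.0812) and with the replicate block (adjusted p = 0.0631). Foxl1, a transcription factor of the gut mesenchyme, had 126.8, 86.1 and 146.9 normalized counts in WT and 47.1, 33.8 and 60.1 in Dnmt3b-/- embryos. The difference was -1.35 ± 0.34 on the log2 scale (SE; adjusted p = 0.0154). Its call was lost with the GC content and length correction, at -0.89 (adjusted p = 0.103), and without WT embryo 1, WT embryo 3 or Dnmt3b-/- embryo 2. Foxa2, also a marker of the floor plate, Nkx2-2, Nkx6-1, Olig2, Pax1, Foxf1, Foxf2 and Mycn did not pass the test.

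**Figure D5:**
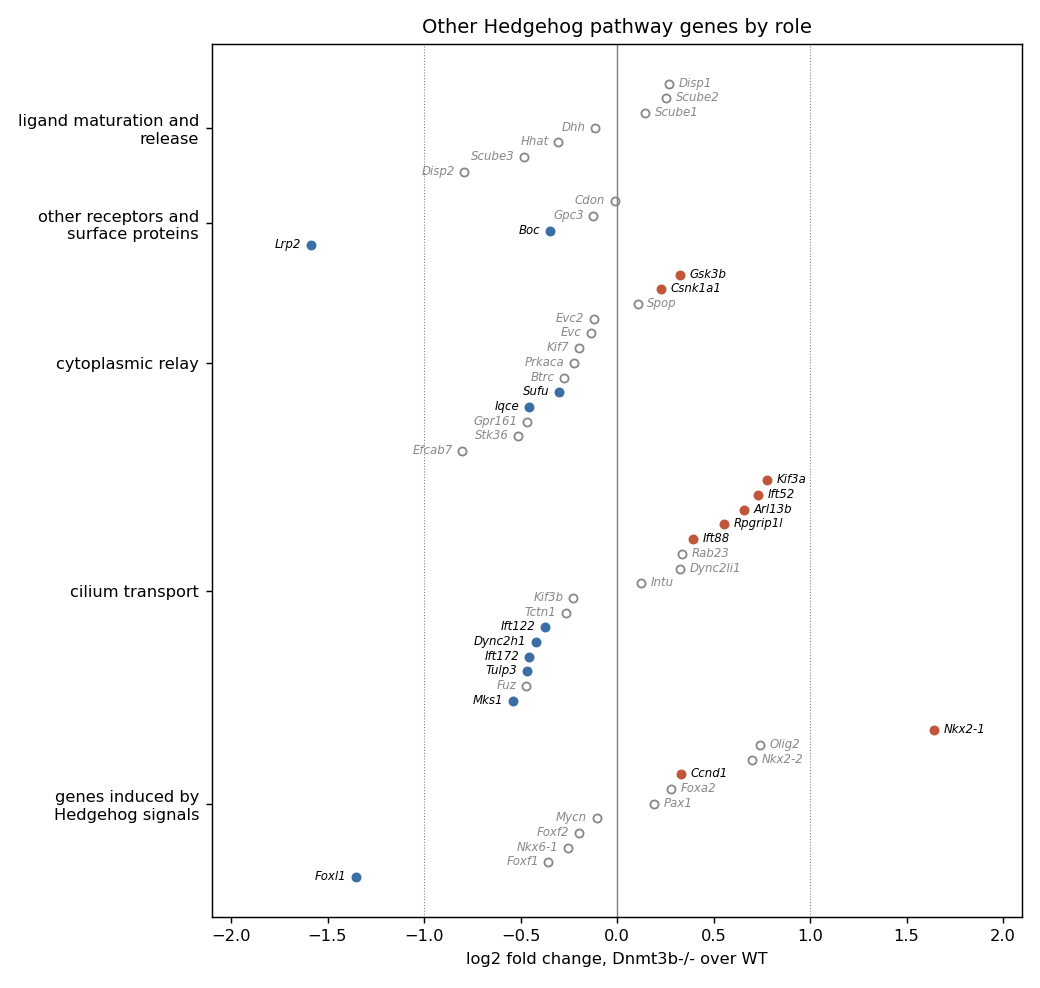
Log2 fold change between the genotypes (horizontal axis, positive where Dnmt3b-/- embryos are higher) for other Hedgehog pathway genes that were tested, grouped by role. Red points rose, blue points fell and open grey points did not pass the test at an adjusted p below 0.05, and dotted lines mark a 2-fold change. Nkx2-1 lies farthest to the right at 1.64, Lrp2 farthest to the left at -1.59, and cilium transport has calls on both sides.

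The genes whose pattern over the 6 embryos was most like that of Ihh, Shh or Gli1 were found by Pearson's r of log2 normalized counts among 11870 genes, as a description with no test. The points share libraries, depth and genotype. For Ihh they were F11r (r = 0.994), Uhrf1bp1l, Diap1, Cdh1 and Fem1b, and 42 genes had r above 0.95. F11r and Cdh1, which code for junction proteins of epithelia, were highest in WT embryo 2, as Ihh was. For Shh they included Fgf18 (r = 0.997), Msn, Zswim5 and Cdca2, with 358 genes above 0.95. Fgf18, a secreted growth factor, had 202.8, 109.1 and 199.1 normalized counts in WT and 358.7, 396.8 and 482.8 in Dnmt3b-/- embryos. For Gli1 they were Shank3 (r = 0.997), Tnrc18, Ahdc1, Lime1 and Anks1, with 565 genes above 0.95. Shank3 had 568.1, 415.7 and 472.6 normalized counts in WT and 315.6, 277.8 and 259.6 in Dnmt3b-/- embryos.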

How the data were processed

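RNA-Seq was done on 3 WT and 3 Dnmt3b-/- E8.5 embryos. The authors aligned stranded, ribosomal RNA-depleted read pairs to mm10 with TopHat2 (2.0.12) and counted reads over RefSeq exons using HTSeq (0.6.0); the submitters' processing notes give these versions, and the RefSeq release and strand setting are not given in the sources used here. The deposited raw counts of 24065 genes were used. The deposited normalized signal, the raw count divided by a DESeq2 size factor, was not tested, and the authors' columns of log2 fold change and adjusted p-value were not used. The methylation libraries were not analysed here.

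Counts were tested with edgeR 4.0.16 (quasi-likelihood, TMM, mean of at least 10 counts, Benjamini-Hochberg over 15114 genes) in R 4.3.3, after tests on simulated data. SE and 95% intervals come from that fit. Alternatives were DESeq2 1.42.0, limma-voom (limma 3.58.1), other scalings and filters, a replicate block, natural splines (5 df) on exonic GC content and length, and each embryo left out. Annotation was RefSeq on GRCm38.p6, the same build as mm10, and 99.2% of symbols matched. Limits of 3 counts cover counting error only.

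The 9 genes and all lists were chosen with earlier results of these data known, so no p was adjusted over a list alone. The further pathway genes named are, in each role, those past the test and 2-fold and the 3 with the smallest adjusted p, and the other named members of a role with a call were chosen after their values were seen. Marker lists are described by counts, summed FPKM and their 3 most abundant genes. Genes alike in pattern had a mean of at least 100 normalized counts, with 1 added before log2. No 2 libraries agreed within sampling noise. Some genes covered by these rules are counted but not reported by name here, nor drawn.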

Additional observations from a re-analysis of the deposited data

How the results depend on the processing

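Of the 9 genes, Shh kept its direction and its side of the threshold in all 15 alternatives. The count of Hedgehog genes that fell, 1 in the reported fit, was 2 in DESeq2 (with Ihh), 0 with the GC content and length correction and 1 to 2 without each embryo in turn. The count that rose, 2, was 4 with that correction, 1 with total counts as the scaling and 1 to 2 without each embryo. A change past 2-fold, reached by none of the 9, was reached by 1 gene in DESeq2 and by 0 to 1 without each embryo. The median log2 fold change of 0.20 became 0.25 with the correction, 0.12 with total counts, which shift the median of all genes from -0.03 to -0.11, and 0.0604 to 0.27 without each embryo; it was lowest without Dnmt3b-/- embryo 3. Of the further pathway genes 11 fell, and the count was 2 with the correction and 2 to 11 without each embryo, lowest without Dnmt3b-/- embryo 2; 9 rose, and the count was 5 to 10 without each embryo, lowest without WT embryo 3. The cause of these shifts was not tested; fits that leave out an embryo rest on fewer samples.

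The replicate numbers showed no sign of pairing the embryos across the genotypes. Correlations of the deviations from the genotype means were -0.06, -0.16 and -0.01 for same-numbered embryos and -0.09 to 0.15 for differently numbered ones. With 3 embryos per genotype these deviations depend on each other, so they cannot tell which embryos shared a litter. With a replicate block 2 Hedgehog genes rose and 1 fell, as without it, and Gli1 was -0.63 (adjusted p = 0.0139), Shh 0.85 and Smo 0.39; of the further genes 6 rose and 8 fell. With the replicate block and the GC content and length correction together, 4 Hedgehog genes rose and 0 fell, their median was 0.26, and of the further genes 4 rose and 3 fell.

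Some directions turned. Gli2 was -0.0592 with total counts and -0.0295 to 0.0604 without each embryo, below 0 without Dnmt3b-/- embryo 2 or WT embryo 2. Hhip was -0.0815 with the correction, -0.12 with the block and correction, and -0.00302 to 0.41 without each embryo, lowest without Dnmt3b-/- embryo 3. Boc was 0.0453 and Sufu 0.0879 with the correction, and 0.0489 and 0.0877 with the block and correction, and Csnk1a1 was -0.08 with the correction. The 3 ratios kept their direction in every alternative run, with a pseudocount of 5 and without each embryo. Some genes of the lists had few counts, among them Nkx3-2, which was not tested, and Dhh.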

Other observations

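Efcab7, a ciliary gene of the cytoplasmic relay, was chosen after its values were seen. It had 309.0 normalized counts in WT embryo 1 and 248.5 and 221.8 in Dnmt3b-/- embryos 1 and 2, and 908.3, 876.1 and 728.8 in WT embryos 2 and 3 and Dnmt3b-/- embryo 3, so embryos of both genotypes lay at both levels (log2 fold change -0.80, adjusted p = 0.268).

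Some genes of the ventral neural tube and sclerotome were low in WT embryo 2, the embryo with the highest yolk sac sum, and were also chosen after their values were seen. Olig2 had 11.48 normalized counts there and 124.7 to 182.1 in the other 5 embryos, and Pax1 had 12.6 there and 48.7 to 74.5 in the others. These low values rest on 10 raw counts for Olig2 and 11 for Pax1. Foxa2, the marker of the floor plate, was not low there, at 815.3 normalized counts beside 472.6 to 931.7 in the other 5 embryos.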
